A study of Arabidopsis thaliana with 8 samples.

Results

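The heterochromatic knob on the short arm of Arabidopsis chromosome 4 was described here as the nucleosomes whose centers lay on chr4:1600001-2350000 (TAIR10), a stretch of 0.750 Mb. It was set against the flank on its telomere side in this reference, chr4:600001-1600000, of 1.00 Mb. The knob held 6891 of 1417407 nuclear nucleosomes summed over 4 lists, and the flank held 11919. In the low digest dex list it held 889 of 242336 nucleosomes, in the low digest mock list 1652 of 316733, in the list filed as high dex (deposited for high digest dex) 1992 of 376240, and in the high digest mock list 2358 of 482098. The window was chosen by position and not by any value of the lists.

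Each list came from MNase-seq, in which micrococcal nuclease (MNase) removes DNA that is not wrapped around histones and the protected fragments are sequenced. All groups were 35S:LFY-GR plants of the Landsberg erecta cultivar, in which the viral 35S promoter drives, in most tissues, the floral regulator LEAFY joined to a steroid receptor domain that holds it in the cytoplasm until dexamethasone (dex) is given. Roots of 3-week-old seedlings were kept for up to 5 days on callus-inducing medium (CIM) and treated for 1 h, which gave dex with a low digest, mock with a low digest, dex with a high digest and mock with a high digest. There were 2 libraries for each, 8 in all, and 1 deposited list per condition, so values between conditions have no replicate error and no test was made.

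Heterochromatin is the compact, mostly silent part of the genome, rich in transposons and repeats and poor in genes. In the Columbia accession an inversion moved pericentromeric sequence into the short arm of chromosome 4, where it forms a knob that stains like a chromocenter. Landsberg erecta, the accession used here, lacks the inversion, and its copy of this sequence lies next to the pericentromere. The lists follow the coordinates of the Columbia reference, and sequence that differs between the accessions was not examined.

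The annotation fitted the label of a gene-poor, repeat-rich block. Coding sequence made up 7.92% of the knob and 33.4% of the flank, and pseudogenes, the class in which the RefSeq annotation lists many genes derived from transposons, made up 36.0% of the knob and 4.54% of the flank. The knob held 61 protein-coding genes and 122 pseudogenes, against 248 and 23 in the longer flank. Of all 50-base stretches, 86.4% occurred once in the nuclear genome in the knob and 97.0% in the flank, which matters because only read pairs with a single position were kept. GC content was close, at 36.7% in the knob and 35.8% in the flank. No histone or DNA methylation data belong to these lists, so the label was checked on sequence alone.

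One list stood apart before any comparison. The low digest dex list was the shortest, its replicates were pooled before nucleosomes were called, and 100% of its occupancy values were multiples of 8, with 148 distinct values against 3490 to 5055 in the other lists. The list deposited for high digest dex carries inside the file the name of a library of low digest dex, hence the wording list filed as high dex. Values are given for each list, so that every comparison can be read without the low digest dex list.

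The most uneven stretch of the knob was a tandem array. The 50-base sequence below is shown because it is the stretch repeated most often in the 50 kb window with the lowest share of unique sequence. Its first copy is at chr4:1700241-1700290 on the plus strand, and no base is marked by a capital.
Array stretch: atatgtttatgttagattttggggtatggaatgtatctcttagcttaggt
It occurred 17 times there and 17 times in the whole nuclear genome on both strands, so no copy lay outside this array in the reference. Neighbouring copies lay a median of 1949 bp apart, with a range of 1945 to 3897 bp, and the copies spanned 37.0 kb.

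A pair of strongly occupied knob nucleosomes and 1 weak one show what the lists held. Both strong ones had the highest mean rank of occupancy over 4 lists in their annotation class among knob nucleosomes found at nearly the same place in every list, and their capitals mark bases covered in all 4 lists. The coding one lies at chr4:2220912-2221051 (plus strand) in AT4G04450, the transcription factor gene WRKY42, with 53.6% GC.
WRKY42 nucleosome: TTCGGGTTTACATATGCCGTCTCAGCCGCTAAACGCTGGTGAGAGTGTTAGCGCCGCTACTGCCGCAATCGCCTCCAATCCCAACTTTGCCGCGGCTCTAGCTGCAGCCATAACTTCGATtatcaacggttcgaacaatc
The nearest nucleosome ranked at percentile 98.4 in the low digest dex list, 98.4 in low digest mock, 95.4 in the list filed as high dex and 97.4 in high digest mock. The pseudogene one lies at chr4:2065652-2065791 (plus strand) in AT4G04280, with 40.7% GC.
AT4G04280 nucleosome: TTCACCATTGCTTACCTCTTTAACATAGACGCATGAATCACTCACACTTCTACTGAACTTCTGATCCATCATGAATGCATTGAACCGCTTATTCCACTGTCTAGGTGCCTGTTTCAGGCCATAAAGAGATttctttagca
Its percentiles were 88.9 in low digest dex, 97.9 in low digest mock, 98.9 in the list filed as high dex and 99.9 in high digest mock. The centers of these nucleosomes moved by 0 to 20 bp between lists. The last sequence is the strongest of the 12 knob nucleosomes of the low digest mock list of which no base was covered in the other lists. It lies at chr4:2129812-2129951 (plus strand) in AT4G04350, a class I tRNA synthetase gene, at percentile 22.7. Its capitals mark a run of 5 or more of the same base, A or T, and mixed stretches of A and T stay in lower case.
Low digest mock nucleosome: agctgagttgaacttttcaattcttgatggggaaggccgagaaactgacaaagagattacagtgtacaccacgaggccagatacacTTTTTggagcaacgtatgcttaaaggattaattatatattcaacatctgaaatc
Every 50-base stretch of these 3 nucleosomes was unique in the genome. The 12 such nucleosomes were 0.726% of the knob's 1652 in that list, against 4 of 2683 (0.149%) in the flank. The share was not taken over all nuclear nucleosomes or other pseudogene-rich windows. With counts this small, the difference is not read as a trait of the knob.

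Nucleosomes were sparser in the knob than in the flank in every list. The low digest dex list had 1185 per Mb in the knob and 2019 per Mb in the flank, a ratio of 0.587 (95% interval 0.543 to 0.635). Low digest mock had 2203 and 2683 per Mb, a ratio of 0.821 (0.772 to 0.873). The list filed as high dex had 2656 and 3177 per Mb, a ratio of 0.836 (0.790 to 0.884). High digest mock had 3144 and 4040 per Mb, a ratio of 0.778 (0.740 to 0.819). These intervals treat each nucleosome as an independent count and cover counting error only. The low digest dex ratio lay below the other 3 intervals, which overlapped each other in part.

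Read as a share of each list, the knob took 0.367% of low digest dex nucleosomes (Wilson 95% interval 0.344 to 0.392%) and 0.522% of low digest mock nucleosomes (0.497 to 0.547%). It took 0.529% of the list filed as high dex (0.507 to 0.553%) and 0.489% of high digest mock (0.470 to 0.509%). The knob makes up 0.629% of the nuclear genome, above every one of these shares. In bases, nucleosomes covered 16.4% of the knob in low digest dex, 29.9% in low digest mock, 36.0% in the list filed as high dex and 42.4% in high digest mock. The flank was covered to 27.8%, 36.5%, 43.0% and 54.4% in the same order of lists. Counting only nucleosomes made wholly of unique sequence, per Mb of unique sequence, the ratio of knob to flank was 0.605 in low digest dex, 0.802 in low digest mock, 0.796 in the list filed as high dex and 0.748 in high digest mock. The lower density of the knob was of similar size on unique sequence.

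**Figure D1:**
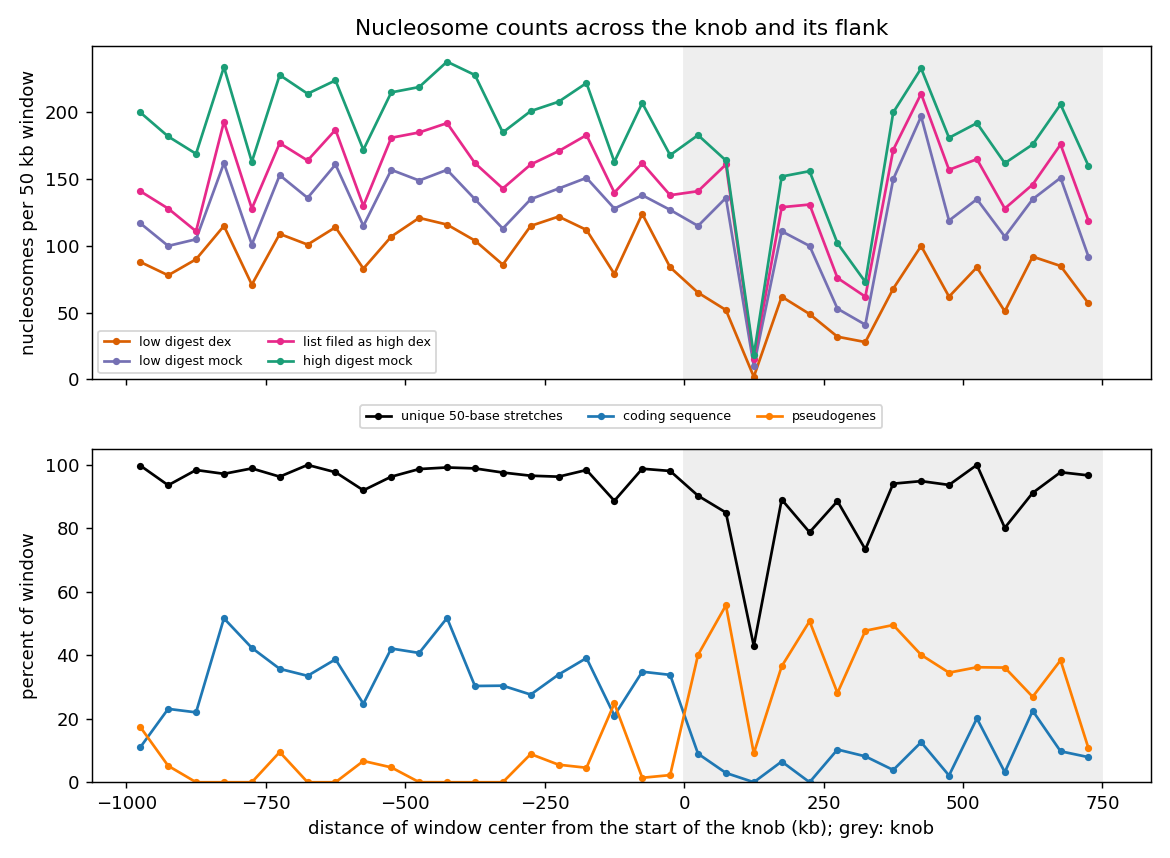
Top, nucleosomes in each 50 kb window of the flank and the knob (grey) for the 4 lists, against the distance of the window center from the start of the knob in kb. Bottom, the percent of each window that is unique, coding or pseudogene sequence. All lists drop to their lowest counts, 2 to 18 nucleosomes, in the window from 100 to 150 kb, where 42.9% of 50-base stretches are unique.

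Along the knob the counts were uneven. Of its 15 windows of 50 kb, the lowest was the one from 100 to 150 kb after the knob's start, with 2 nucleosomes in low digest dex, 10 in low digest mock, 15 in the list filed as high dex and 18 in high digest mock. It holds the tandem array and no coding sequence, and 42.2% of its 50-base stretches were repeats of another one in the window. Between the first and the last copy of the printed stretch lay 0 centers in low digest dex, 5 in low digest mock, 9 in the list filed as high dex and 8 in high digest mock. With 42.9% of the window unique, nucleosomes there could be mapped only in part, and their share in the low count was not tested.

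The densest window was at 400 to 450 kb in all 4 lists, with 100 nucleosomes in low digest dex, 197 in low digest mock, 214 in the list filed as high dex and 233 in high digest mock. It was 94.8% unique and had 12.6% coding and 40.1% pseudogene sequence. In low digest mock and in the list filed as high dex it exceeded the highest flank windows, which had 162 and 193 nucleosomes. The median knob window had 62.0 nucleosomes in low digest dex against 106 in the flank, 115 against 136 in low digest mock, 141 against 162 in the list filed as high dex and 164 against 208 in high digest mock. Among 2380 nuclear windows these knob medians stood at percentiles 14.0, 25.9, 27.0 and 16.2.

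By annotation class, the lower density of the knob was not seen in its genes outside the low digest dex list. In coding sequence the knob had 3115 nucleosomes per Mb in low digest dex against 3423 in the flank, 5456 against 5168 in low digest mock, 5793 against 5761 in the list filed as high dex and 6046 against 5800 in high digest mock. Over whole protein-coding gene bodies, introns and UTRs included, the ratio of knob to flank density was 0.929 in low digest dex, 1.07 in low digest mock, 0.999 in the list filed as high dex and 1.01 in high digest mock. The deficit seen over all sequence was thus absent from gene bodies in the 3 lists other than low digest dex, and smaller in that list.

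Pseudogenes held 1299 nucleosomes per Mb in the knob in low digest dex, 2669 in low digest mock, 3176 in the list filed as high dex and 3298 in high digest mock. Their densities in the flank were 1586, 2555, 2929 and 2907 per Mb, from 72 to 133 nucleosomes only. Sequence between genes was sparser still, with 733, 1379, 1811 and 2471 per Mb in the knob against 1199, 1244, 1501 and 2669 in the flank. In each of the 4 lists the order from coding to pseudogene to intergenic sequence held in the knob and in the flank. In low digest mock and the list filed as high dex the knob was not sparser than the flank in coding, pseudogene or intergenic sequence. Of these classes, high digest mock was sparser in the knob only between genes, and low digest dex was sparser in each. The densities of single classes carry no interval. Coding sequence, the densest class, made up 7.92% of the knob and 33.4% of the flank. How far this make-up accounts for the lower density over all sequence was not tested.

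**Figure D2:**
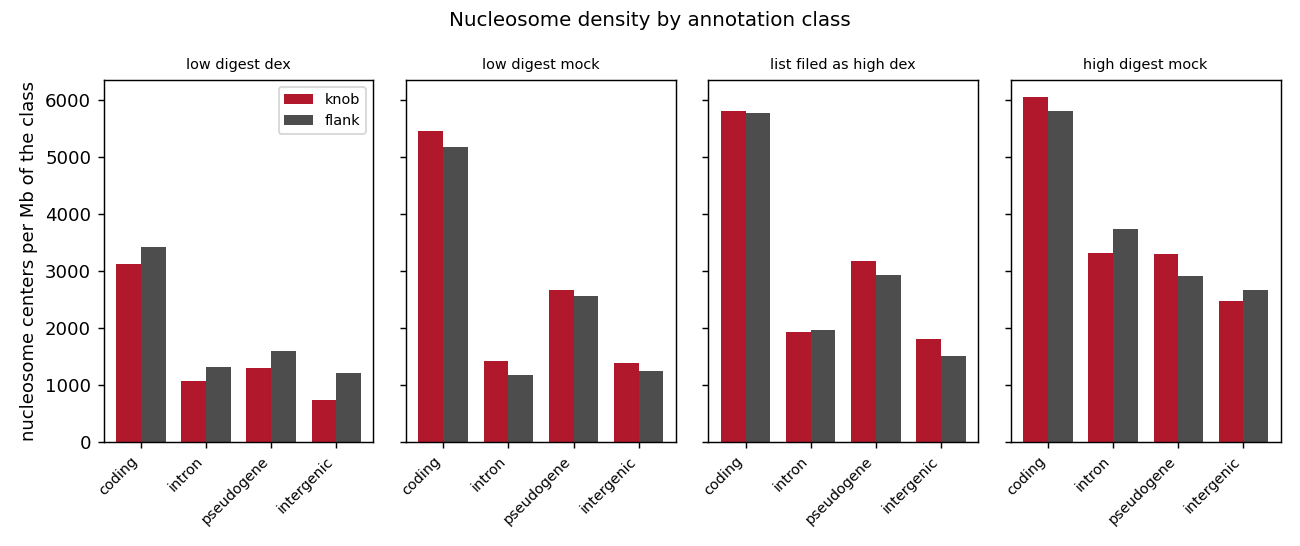
Nucleosome centers per Mb of coding, intron, pseudogene and intergenic sequence in the knob (red, left) and the flank (grey, right), 1 panel per list, with 1 list per condition and so no error bars. Coding bars of knob and flank are close, such as 5793 and 5761 per Mb in the list filed as high dex, and both stand above the pseudogene and intergenic bars.

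Set against pseudogene-rich sequence elsewhere, the knob was denser. For this, 300 other windows of 50 kb with at least 25% pseudogene and at most 15% coding sequence were taken over the 5 chromosomes, a choice made with results of these lists known. The ratio of knob to these windows was 1.24 in low digest dex (95% interval 1.16 to 1.32), 1.26 in low digest mock (1.20 to 1.32), 1.21 in the list filed as high dex (1.16 to 1.27) and 1.21 in high digest mock (1.16 to 1.26). These windows were 81.0% unique, held 3.98% coding sequence and are thus poorer in genes than the knob.

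Between lists, the knob changed most where the low digest dex list was involved. The count of low digest dex over low digest mock nucleosomes was 0.538 in the knob, 0.753 in the flank and 0.765 over all nuclear chromosomes. The knob's ratio over the flank's was 0.715 (95% interval 0.647 to 0.790). The list filed as high dex over high digest mock gave 0.845 in the knob and 0.786 in the flank, a ratio of 1.07 (0.996 to 1.16). Low digest dex over the list filed as high dex gave 0.446 in the knob and 0.636 in the flank, a ratio of 0.702 (0.637 to 0.774). Low digest mock over high digest mock gave 0.701 and 0.664, a ratio of 1.05 (0.974 to 1.14). Both ratios away from 1 share the low digest dex list. How that list was made and the treatment cannot be told apart from these files.

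The same loss was seen in other pseudogene-rich windows, where low digest dex over low digest mock was 0.547. The knob's ratio over theirs was 0.983 (95% interval 0.904 to 1.07). By class, low digest dex over mock in the knob was 0.571 in coding sequence, 0.487 in pseudogenes and 0.532 between genes, and in the flank 0.662, 0.621 and 0.963. The widest gap between knob and flank was thus between genes.

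**Figure D3:**
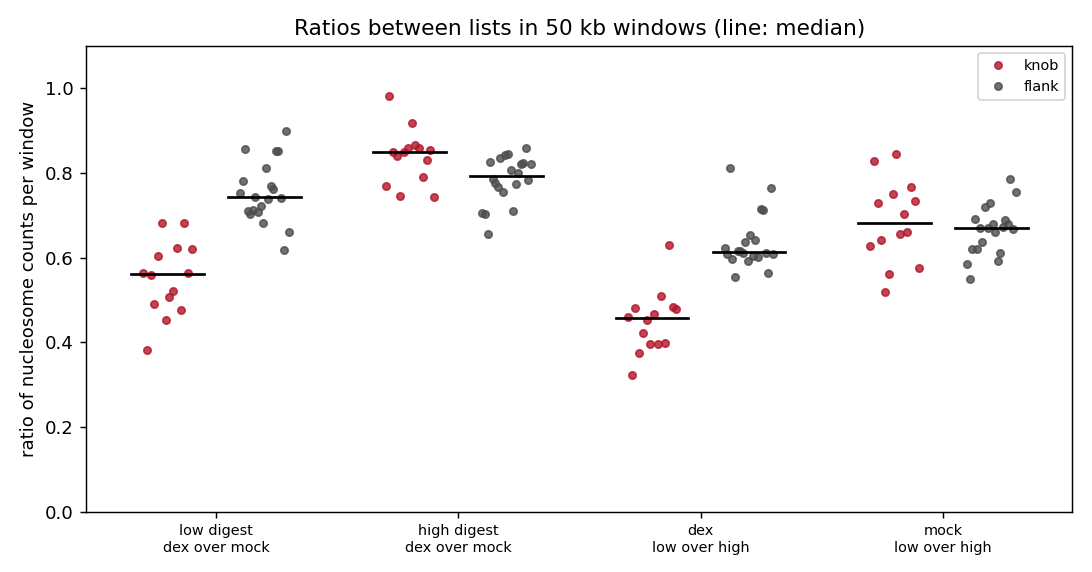
Ratios of nucleosome counts between lists in 50 kb windows of the knob (red, left) and the flank (grey, right), for windows with at least 30 nucleosomes in the list below the line of the ratio, with the median as a black line. For dex over mock at the low digest the knob median is 0.561 and the flank median 0.742. The ratios labelled high digest, dex over mock, and dex, low over high, use the list filed as high dex.

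Window by window, the low digest dex over mock ratio was 0.382 at the lowest, 0.561 at the median and 0.683 at the highest over the 14 knob windows with at least 30 low digest mock nucleosomes. In 20 flank windows it was 0.617, 0.742 and 0.899. In 10 of the 14 knob windows the ratio was below the lowest flank window. The lowest ratio was at 50 to 100 kb after the knob's start, with 52 nucleosomes in low digest dex and 136 in low digest mock, where 55.7% of the window was pseudogene sequence.

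The lists also differed in base composition. Median GC of nuclear nucleosomes was 40.7% in low digest dex and 42.1% in low digest mock. It was 40.7% in the list filed as high dex and 38.6% in high digest mock. For low digest dex over low digest mock, the knob showed the same shape as the flank at a lower level. The highest ratios lay below 35% GC and the lowest at 40 to 45%. At 30 to 35% GC the flank had 192 nucleosomes in low digest dex and 94 in low digest mock, a ratio of 2.04, and all nuclear chromosomes gave 1.95. The knob had 88 and 97 in the same bin, a ratio of 0.907. At 40 to 45% GC the ratio was 0.451 in the knob (283 and 627 nucleosomes) and 0.609 in the flank (691 and 1135). In each GC bin the knob's ratio was below the flank's. Low digest dex nucleosomes of 30 to 35% GC thus outnumbered those of low digest mock in the flank and over the genome but not in the knob. Other pseudogene-rich windows were not divided by GC, so this is not read as a trait of the knob alone.

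Knob nucleosomes ranked low within their lists. Ranks were percentiles of the occupancy signal among nuclear nucleosomes of the same list, since the signal could not be compared between lists. The median percentile was 35.8 in the knob and 51.9 in the flank in low digest dex, 41.2 and 48.2 in low digest mock, 41.5 and 48.8 in the list filed as high dex, and 41.3 and 49.7 in high digest mock. In low digest dex 32.7% of knob nucleosomes (Wilson 95% interval 29.7 to 35.9%) lay above the list median against 41.3% in the flank, where ties in that list keep both below the middle. The shares were 41.9% and 47.5% in low digest mock, 42.0% and 48.7% in the list filed as high dex, and 40.8% and 49.3% in high digest mock. Intervals of knob and flank did not overlap in any list, but with only unique nucleosomes the difference of knob minus flank in low digest mock was -2.41 percentage points (95% interval -5.65 to 0.843). In lists selected by occupancy itself it was -1.57 (-5.14 to 2.02) in low digest mock and -2.65 (-6.25 to 0.982) in the list filed as high dex with equal sizes, and within the higher 50% it was 4.57 in low digest dex and 0.323 in low digest mock. Other pseudogene-rich windows had 33.7% of nucleosomes above the list median in low digest dex, 41.0% in low digest mock, 37.9% in the list filed as high dex and 35.1% in high digest mock.

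Strong nucleosomes were scarcer in the knob than in the flank, as in other pseudogene-rich windows, but present. The highest 10% of each list included 4.84% of knob nucleosomes in low digest dex, 6.36% in low digest mock, 6.73% in the list filed as high dex and 7.21% in high digest mock, against 9.71%, 9.47%, 10.8% and 9.88% of flank nucleosomes. Other pseudogene-rich windows had 6.97%, 8.32%, 6.34% and 6.02% in the same order. These shares were above the knob's in the low digest lists and below them in the other lists. The strongest knob nucleosome of the list filed as high dex lay in the pseudogene AT4G04255 at chr4:2049492-2049631, and its neighbour at chr4:2049332-2049471 was among the top 3 of the knob there and in high digest mock. In high digest mock the strongest one lay at chr4:2065642-2065781 in AT4G04280, 10 bp from the printed pseudogene sequence. Low digest dex and low digest mock both had their strongest knob nucleosome between genes near chr4:1846582-1846721, with centers 10 bp apart, on sequence that was not unique throughout. In low digest dex it was tied with one in an untranslated part of AT4G04620 at chr4:2330202-2330341.

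Within coding sequence, knob nucleosomes did not rank below those of the flank. The median percentile of coding nucleosomes was 51.9 in the knob and 51.9 in the flank in low digest dex, 52.3 and 49.9 in low digest mock, 70.0 and 59.9 in the list filed as high dex, and 67.5 and 62.7 in high digest mock. Between genes it was 35.8 and 51.9 in low digest dex, 37.2 and 46.9 in low digest mock, 32.7 and 28.3 in the list filed as high dex, and 31.0 and 27.3 in high digest mock.

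Spacing was read as the distance between neighbouring centers. The median distance was 380 bp in the knob and 300 bp in the flank in low digest dex, 220 and 220 bp in low digest mock, 200 and 200 bp in the list filed as high dex, and 190 and 180 bp in high digest mock. Distances of 140 to 250 bp, taken as those of neighbours in a regular array, made up 25.5% of knob distances and 32.3% of flank distances in low digest dex. They made up 40.9% and 42.5% in low digest mock, 45.4% and 48.1% in the list filed as high dex, and 51.5% and 54.9% in high digest mock. Other pseudogene-rich windows had 26.9% in low digest dex, 40.6% in low digest mock, 44.2% in the list filed as high dex and 47.7% in high digest mock. Those values were near the knob's or below them. Distances also lengthen where nucleosomes are sparser, and these shares were not separated from density. The difference of knob minus flank was -6.86 percentage points in low digest dex (95% interval -10.3 to -3.28) and -1.52 in low digest mock (-4.53 to 1.50). It was -2.76 in the list filed as high dex (-5.54 to 0.0397) and -3.43 in high digest mock (-5.96 to -0.892). With equal list sizes the difference grew to -4.06 (-7.46 to -0.600) in low digest mock, -5.37 (-8.86 to -1.82) in the list filed as high dex and -4.69 (-8.38 to -0.940) in high digest mock, and all 3 intervals then lay below 0. Equal sizes keep the nucleosomes of highest occupancy, which left the knob with fewer relative to the flank, so this does not test its spacing. Among distances of 140 to 250 bp the mean was 193 bp in the knob and 189 bp in the flank in low digest dex, 188 and 187 bp in low digest mock, 186 and 186 bp in the list filed as high dex, and 187 and 183 bp in high digest mock.

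Long gaps were more common in the knob than in the flank, as in other pseudogene-rich sequence. Distances over 1 kb were 19.7% of knob distances and 9.91% of flank distances in low digest dex, 7.81% and 5.63% in low digest mock, 5.83% and 3.53% in the list filed as high dex, and 3.31% and 1.63% in high digest mock. In other pseudogene-rich windows they were 18.0%, 8.29%, 5.94% and 4.01% in the same order of lists, near the knob's values or above them. The longest in low digest dex was 46140 bp, over the gap chr4:1697062-1743061 with the tandem array and 36.9% unique sequence. In low digest mock it was 32110 bp, over the gap chr4:1899702-1931671 with 9 pseudogenes and 66.5% unique sequence. In the list filed as high dex it was 23020 bp, over the gap chr4:2141902-2164781 with 9 pseudogenes and 1 other gene, and 69.4% unique sequence. In high digest mock it was 25910 bp, over the gap chr4:1704462-1730231 within the array, 31.0% unique. The longest flank distances were 18420, 14290, 14110 and 11270 bp in the same order of lists.

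Regular runs occurred in the knob as in the flank. Runs of 5 or more nucleosomes at 140 to 250 bp held 2.25% of knob and 5.79% of flank nucleosomes in low digest dex, 14.0% and 12.2% in low digest mock, 20.2% and 19.8% in the list filed as high dex, and 28.7% and 31.0% in high digest mock. The longest knob run had 5 nucleosomes in low digest dex, in CRK39, and 8 in low digest mock, in CRK40. It had 12 in the list filed as high dex, in AT4G04145, and 16 in high digest mock, across APR1 and AT4G04614.

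Recovery was read as the percent of nucleosomes of a list with at least 50% of their bases covered in another list. Of low digest dex nucleosomes in the knob, 83.2% were recovered in low digest mock, against 78.9% in the flank and 80% over all nuclear nucleosomes. In the other direction 45.3% of low digest mock nucleosomes in the knob (Wilson 95% interval 43.0 to 47.7%) were recovered in low digest dex, against 60.5% in the flank and 61.5% over all. Of nucleosomes of the list filed as high dex, 89.4% in the knob were recovered in high digest mock, against 92.2% in the flank and 92.5% over all, and of high digest mock nucleosomes 75.9% were recovered in that list, against 73.0% in the flank and 73.0% over all.

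Between lists filed under different digests, 88.3% of low digest dex nucleosomes in the knob were recovered in the list filed as high dex. The share was 83.4% in the flank and 85.2% over all. In the other direction it was 39.6% in the knob, 53.3% in the flank and 55.5% over all. Of low digest mock nucleosomes in the knob 91.0% were recovered in high digest mock, against 91.7% in the flank and 92.7% over all, and in the other direction 63.7%, 61.6% and 61.8%. Of the 8 shares, the 2 that asked whether a nucleosome was present in low digest dex were the furthest below the background in the knob, at -15.1 and -13.7 percentage points for knob minus flank. The other 6 differences lay between -2.82 and 4.94 percentage points. Those 2 shares were 45.6% and 39.3% in other pseudogene-rich windows, close to the knob's 45.3% and 39.6%. Recovery in a list is limited by that list's own count and coverage. In the knob low digest dex had 889 nucleosomes over 16.4% of bases, the fewest of the lists. These 2 shares are thus not a result separate from the count ratios.

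**Figure D4:**
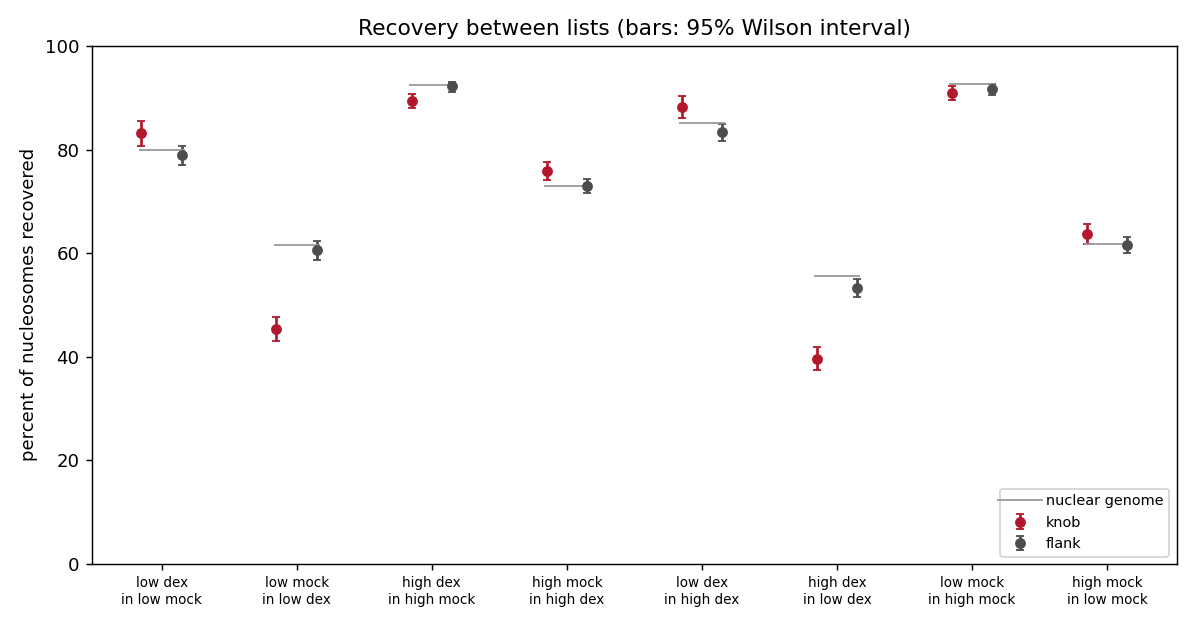
Percent of nucleosomes of the list named first with at least 50% of bases covered in the list named second, for the knob (red, left) and the flank (grey, right) with Wilson 95% intervals, and for all nuclear nucleosomes (line). The knob lies far below the flank only for recovery in low digest dex, at 45.3% against 60.5% and 39.6% against 53.3%, while other pseudogene-rich windows, not drawn, had 45.6% and 39.3%.

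The lower recovery of low digest mock nucleosomes in low digest dex, tied to the lower count of that list in the knob, was seen at each level of occupancy. The low digest mock list was divided into 4 parts of equal size by occupancy. In the lowest part 23.9% were recovered in the knob and 41.5% in the flank, in the next 40.9% and 53.9%, in the one above it 54.7% and 66.8%, and in the highest 75.2% and 83.4%. Over all nuclear nucleosomes the shares were 39.2%, 54.0%, 68.2% and 85.0%. Other pseudogene-rich windows were not divided in this way, and their undivided share was 45.6%, near the knob's 45.3%. Knob nucleosomes that were not recovered ranked lower, with a median percentile of 29.8 for 903 of them against 59.6 for the 749 recovered. Their GC content was close, at 41.4% and 42.1%, and 78.7% against 89.7% consisted of unique sequence.

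Offsets between matched nucleosomes were of similar size in knob and flank for low digest dex against low digest mock. Among low digest dex knob nucleosomes with a low digest mock center within 70 bp, 55.6% lay within 20 bp, against 57.2% in the flank. For the list filed as high dex against high digest mock, offsets were smaller in the knob, with medians of 10 bp and 20 bp in the flank. The share within 20 bp was 65.7% in the knob (95% interval 63.5 to 67.9%) and 60.5% in the flank (58.7 to 62.3%). Of low digest mock nucleosomes, 13.1% in the knob (Wilson 95% interval 11.5 to 14.8%) and 14.3% in the flank (13.0 to 15.6%) had a center within 20 bp in each of the other 3 lists, against 12% in other pseudogene-rich windows and 15% over all nuclear nucleosomes. These 216 knob nucleosomes lay in coding sequence in 27.8% and in pseudogenes in 31.9%, against 19.6% and 43.6% of all 1652. Of knob bases 9.50% were covered in all 4 lists and 47.8% in none, against 14.9% and 34.4% of flank bases. Uncovered knob bases began a unique 50-base stretch in 76.1% of cases, against 98.3% of knob bases covered in all lists.

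Genes of the knob carried nucleosomes much like genes of the flank. Over the 48 protein-coding knob genes of at least 1000 bp, the median covered share of the gene body was 32.1% in low digest dex, 53.4% in low digest mock, 57.5% in the list filed as high dex and 69.0% in high digest mock. Over 210 flank genes it was 35.9%, 47.2%, 58.3% and 70.1%. In 44 of the 48 knob genes coverage was lower in low digest dex than in low digest mock and in 2 higher, against 171 and 25 of 210 flank genes. The 89 pseudogenes of at least 1000 bp varied more, with medians of 17.4%, 41.0%, 53.0% and 56.3%, and 9 of them had no covered base in any list. The same held for 1 of 11 flank pseudogenes, 8 of the 210 flank genes and 0 of the 48 knob genes. Among the 9, AT4G04390 and AT4G04392 were 100% unique in sequence, and the reason for their lack of nucleosomes was not tested.

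Coverage stepped up at knob gene starts. Over the 61 protein-coding genes the 300 bp after the annotated start were covered to 29.3% and the 300 bp before it to 15.8% in low digest dex, to 47.3% and 23.0% in low digest mock, to 53.4% and 29.2% in the list filed as high dex, and to 60.7% and 39.3% in high digest mock. The ratio of after to before was 1.85, 2.06, 1.83 and 1.54 in the knob and 1.28, 1.59, 2.10 and 1.55 in the flank. For the 122 knob pseudogenes it was 1.27, 1.48, 1.35 and 1.09, lower than for protein-coding knob genes in each list.

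The receptor kinase genes CRK36 to CRK40, a cluster of kinases with cysteine-rich extracellular domains, lie in the part of the knob nearest the centromere in the Columbia reference. CRK38 (AT4G04510, chr4:2242072-2244930) was covered to 34.3% in low digest dex, 66.4% in low digest mock, 64.0% in the list filed as high dex and 79.0% in high digest mock. Low digest dex was lowest by far. CRK40 (AT4G04570, chr4:2288616-2292965) was covered to 29.0%, 47.6%, 57.0% and 57.2% in that order. In CRK36, CRK37 and CRK39 low digest dex was also the lowest list, at 33.0%, 32.9% and 35.9%, against 54.0% to 54.3% in low digest mock. All 5 thus kept to the same order of the low digest lists, as did 44 of the 48 knob genes and 171 of the 210 flank genes. This order is not particular to the cluster.

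A further 5 genes were named for a known role. FIB (AT4G04020, chr4:1931883-1933950), a fibrillin of plastid lipid bodies, was covered to 33.8% in low digest dex, 70.1% in low digest mock, 65.2% in the list filed as high dex and 73.5% in high digest mock. RLP46 (AT4G04220, chr4:2033168-2035946), a receptor-like protein, had 20.2%, 56.3%, 68.7% and 74.5%, and APR1 (AT4G04610, chr4:2324878-2327064), which reduces activated sulfate, had 25.6%, 52.8%, 57.6% and 75.0%. Low digest dex was well below the rest in these genes. PUX4 (AT4G04210, chr4:2029855-2031942), which binds the segregase CDC48, had 53.6%, 65.1%, 51.2% and 72.8%, and the Rubisco assembly chaperone gene RbcX1 (AT4G04330, chr4:2116553-2118617) had 20.3%, 28.5%, 35.8% and 48.9%. For both, low digest dex lay closer to low digest mock, by -11.5 and -8.18 percentage points.

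By mean coverage over the 4 lists, the highest knob genes were AT4G03635 and AT4G04480 (F-box proteins), AT4G03830 (a protein of unknown function), AT4G04370 (a tetratricopeptide repeat protein) and EMB2369 (AT4G04350, the class I tRNA synthetase). AT4G03635 (chr4:1611651-1613117) differed least between lists, with 58.4% in low digest dex, 63.9% in low digest mock, 62.5% in the list filed as high dex and 66.9% in high digest mock. AT4G03830 had the highest single value among the named genes, 82.3% in the list filed as high dex. All 5 are wholly unique in sequence.

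The lowest were AT4G03950 (a nucleotide/sugar transporter family protein), PFA-DSP4 (AT4G03960, a phosphatase), OFP9 (AT4G04030, an ovate family repressor), AT4G04402 (a two-component phosphorelay mediator) and AT4G04555 (a Myb family factor). AT4G03950 had 0% in low digest dex, 17.6% in low digest mock, 28.9% in the list filed as high dex and 18.4% in high digest mock, on 71.1% unique sequence. OFP9 had 10.6%, 7.65%, 9.92% and 20.2%, but 25.5% of its 50-base stretches were unique. PFA-DSP4 (chr4:1887462-1889255) and AT4G04555 (chr4:2265647-2266799) were fully unique, and had 7.80% and 3.04% in low digest dex and 39.0% and 26.5% in high digest mock. AT4G04402, 96.3% unique, stood at 20% in 3 lists and at 48.1% in high digest mock.

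Between low digest dex and low digest mock the largest losses were in AT4G04404 (a C2H2 zinc finger protein), with 13.9% and 54.6%, and AT4G03590 (a cystatin/monellin family protein), with 11.1% and 50.3%. In the list filed as high dex they had 69.4% and 47.5%, above low digest mock in AT4G04404 and close to it in AT4G03590. The largest gain was in AT4G04614, an uncharacterized gene that overlaps the end of APR1 on the other strand, with 42.8% in low digest dex and 22.9% in low digest mock. OFP9 had the other gain, of 2.95 percentage points. The 2 genes that gained were the only ones of the 48.

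**Figure D5:**
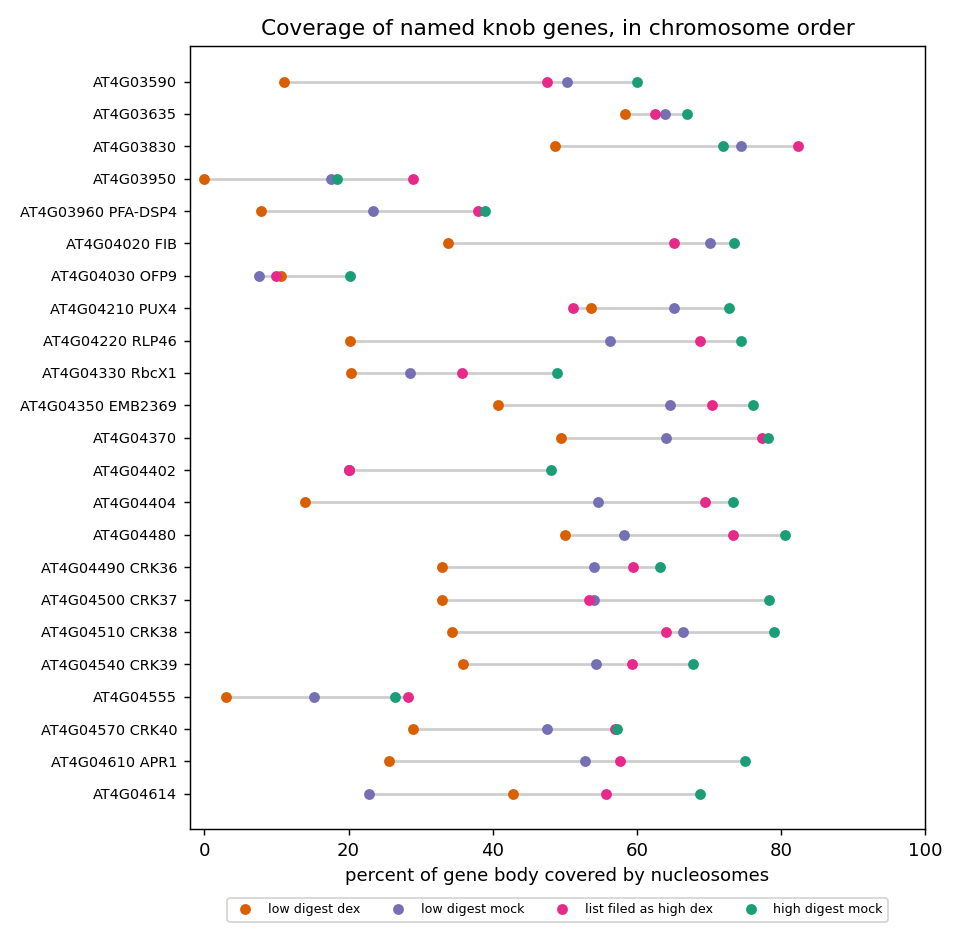
Percent of the gene body covered by nucleosomes in each of the 4 lists (points) for the named knob genes, in chromosome order from the top, with a grey line over the range. Low digest dex is the leftmost point in most genes. AT4G04614 is the exception with the largest gain, at 42.8% against 22.9% in low digest mock, and 3 lists share the point at 20% in AT4G04402.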

How the data were processed

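Mononucleosome DNA from 8 libraries was sequenced in pairs. The authors mapped the reads to TAIR10 with Bowtie 1.2.2, kept pairs with a single position and called nucleosomes with DANPOS at an occupancy q cutoff of 1e-50, and Picard 2.9.4 is listed among their tools. For low digest dex the replicates were joined ahead of calling, and for the other lists the way they were combined is not stated. The deposited lists give intervals of 140 bp and an occupancy signal at each summit, which was used only as a rank within its list. No list gives read numbers, so the depth is unknown, and it cannot be told whether a longer list came from more reads.

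Each list was given its condition by the label of its file. Interval starts were read as counting from 0. Sequence and gene models were those of RefSeq for TAIR10.1, whose nuclear chromosomes match TAIR10 in length, and this annotation lists no transposons as such. A base was assigned to coding, UTR, intron, pseudogene, noncoding RNA gene or intergenic sequence in that order of preference for coding. Python 3.11.15, NumPy 2.4.6, SciPy 1.17.1 and Matplotlib 3.10.9 were used, and the scripts were tested on simulated lists. Shares carry Wilson intervals, differences of shares Newcombe intervals, and ratios of counts intervals on the log scale, all at 95% and for counting error only. No test was made, because there was 1 list per condition and nucleosomes are not replicates.

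Named genes were protein-coding, inside the knob and at least 1000 bp long, namely the 5 with the highest and the 5 with the lowest mean coverage, the 2 with the largest gain and the 2 with the largest loss in low digest dex relative to low digest mock, CRK36 to CRK40 and 5 genes of known role. The members, gene lists and comparisons were chosen with earlier results of these data known. Alternatives were lists of equal size, the higher 50% by occupancy, a knob trimmed by 0.05 Mb at each edge, only unique nucleosomes, a nearer flank, gene bodies only, a narrower range of distances and other overlaps.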

Additional observations from a re-analysis of the deposited data

Results flagged for a closer look

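Counts of knob and flank were lower in the first list of every pair, and the size of the fall in the knob relative to the flank differed between pairs. The count ratio of the knob over that of the flank was 0.715 for low digest dex over low digest mock. It was 1.07 for the list filed as high dex over high digest mock. For low digest dex over the list filed as high dex it was 0.702, and for low over high digest mock 1.05. Both differences rest on the same 4 lists, with 1 list per condition, and were not tested. The digest of the list filed as high dex is uncertain, so they cannot be read as an effect of digest or treatment. The 95% counting intervals of the 1.07 and the 1.05 include 1.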

How the results depend on the processing

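Of 148 alternative values, 43 lay outside the 95% interval of the reported value, 4 more changed direction where that interval had excluded no difference, and the others stayed within it. Restricted to protein-coding gene bodies, each 95% interval of the ratio of knob to flank density included 1. The ratio was then 0.929 for low digest dex and 0.999 for the list filed as high dex. It turned to 1.07 for low digest mock and 1.01 for high digest mock. With equal list sizes it was 0.761 for low digest mock, 0.737 in the list filed as high dex and 0.647 in high digest mock, and with the higher 50% by occupancy 0.376 in low digest dex and 0.724, 0.718 and 0.642 in the same 3 lists. The knob's share of a list over its share of the genome was 0.583 in low digest dex, 0.829 in low digest mock, 0.841 in the list filed as high dex and 0.777 in high digest mock. With the higher 50% it was 0.382, 0.694, 0.709 and 0.638. For the 3 lists other than low digest dex it was 0.762, 0.741 and 0.641 with equal sizes and 0.790, 0.783 and 0.730 with only unique nucleosomes.

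The share above the list median, knob minus flank, was -8.57 percentage points in low digest dex, -5.63 in low digest mock, -6.71 in the list filed as high dex and -8.58 in high digest mock. Within the higher 50% it turned to 4.57 in low digest dex and 0.323 in low digest mock, and was -4.12 in high digest mock. For low digest mock, the list filed as high dex and high digest mock it was -1.57, -2.65 and -4.46 with equal sizes and -2.41, -3.61 and -4.77 with only unique nucleosomes. Both the higher 50% and equal sizes select by occupancy, the value that is ranked, so they do not test the lower rank of the knob. With equal sizes the interval included 0 in low digest mock (-5.14 to 2.02) and in the list filed as high dex (-6.25 to 0.982). The difference in regular distances lay within its reported interval under every alternative. Its own interval came to exclude 0 with only unique nucleosomes in the list filed as high dex (-4.39, -7.37 to -1.39). With equal sizes it came to exclude 0 in low digest mock (-4.06) and in the list filed as high dex (-5.37). Those equal-size values do not test spacing, since that selection left the knob with fewer nucleosomes relative to the flank.

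The difference in recovery, knob minus flank, for low digest dex in low digest mock became 9.49 percentage points with the higher 50% and 0.774 at 80% overlap. For low digest mock in low digest dex it became -19.2 and -11.6. For the list filed as high dex in high digest mock it became -7.53 with equal sizes, -5.18 with the higher 50% and -0.362 at 80% overlap. At 80% overlap it was 5.15 for high digest mock in the list filed as high dex and -9.03 for the list filed as high dex in low digest dex, and with equal sizes it was -6.56 for low digest mock in high digest mock.

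Alternatives for the ratios between lists were chosen after seeing the data. The low digest dex over mock ratio, knob over flank, was 0.519 with the higher 50% and 0.867 in gene bodies. For the list filed as high dex over high digest mock it was 0.989 in gene bodies, below 1 where the reported 1.07 has an interval that includes 1. Low digest dex over the list filed as high dex gave 0.797 with equal sizes, 0.523 with the higher 50% and 0.930 in gene bodies. Low over high digest mock gave 1.18 with equal sizes. No paired analysis was possible because each condition has 1 list that combines its replicates.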
